A study of Mus musculus with 7 samples.

Results

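Cd4, Cd8a and Cd8b1 encode the coreceptors that divide mature T cells into helper and cytotoxic lineages, and these 3 genes were taken by their names from a table of 23420 gene rows. Each had 1 row, and none overlapped another annotated gene. Bulk RNA sequencing was carried out on heart ventricle (the tissue label reads whole heart) of 7 mice aged 3 to 6 weeks that had received no treatment. All 7 mice carried the genotype Pdcd1-/-, so the controls also lacked PD-1 by label. The 4 control mice were Ctla4+/+;Pdcd1-/- and the 3 mice with myocarditis modelling that caused by immune checkpoint inhibitors (ICI-myocarditis) were Ctla4+/-;Pdcd1-/-. The labels name no Cre or cell type for either allele, and no wild-type heart was among the samples analysed here. In bulk tissue, fewer cells of a type and less RNA per cell cannot be told apart.

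CD4 binds MHC class II and CD8 binds MHC class I, and each brings the kinase LCK to the T cell receptor when a peptide is recognised. CD8 on conventional cytotoxic T cells is a heterodimer of the alpha chain (Cd8a) and the beta chain (Cd8b1). Neither Cd4 nor Cd8a is restricted to T cells: in mice some macrophages and dendritic cells carry CD4, and some dendritic cells carry the CD8 alpha homodimer, while the beta chain is more closely tied to T cells. Developing thymocytes carry both coreceptors at once before they commit to one.

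In the GENCODE M21 annotation of GRCm38, all 3 genes lie on chromosome 6. Cd8b1 spans 71322788 to 71337494 and Cd8a spans 71373427 to 71379173, both on the plus strand with 35932 bases between them, and Cd4 lies at 124864692 to 124888221 on the minus strand. The principal transcripts have 10 exons (Cd4), 5 exons (Cd8a) and 6 exons (Cd8b1). The promoter of Cd8a is shown because Cd8a had the most reads of the 3 genes in the diseased hearts, where its neighbour Cd8b1 was also higher. RefSeq (GRCm38.p6) gives it as chr6:71373177-71373476, plus strand, from 250 bases before the gene start onwards, printed 5′ to 3′ with motif matches in capitals.

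Cd8a: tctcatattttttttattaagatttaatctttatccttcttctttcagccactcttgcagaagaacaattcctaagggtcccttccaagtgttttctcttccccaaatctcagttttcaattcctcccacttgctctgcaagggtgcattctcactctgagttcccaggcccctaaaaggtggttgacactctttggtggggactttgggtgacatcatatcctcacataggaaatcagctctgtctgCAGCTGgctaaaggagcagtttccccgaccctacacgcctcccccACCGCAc

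On both strands, the window held 1 E-box CAGCTG, starting 2 bases upstream of the gene start, and 1 match to the RUNX motif TGCGGT, read on the minus strand. CAGCTG was present in 16.3% and TGCGGT in 6.45% of the 32851 promoters of the same length. A second RUNX spelling, TGTGGT, was not in this window, and 16.8% of promoters hold it. The GATA motif searched, spelled AGATAA, was not in this window either (11.2% of promoters). For the ETS family the letters were CAGGAAG, with no match here and one or more in 13.3% of promoters. The matched motifs do not overlap each other, and a match is a description of letters only. Promoters of Cd4 and Cd8b1 are not shown.

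The libraries held 20931730 to 39037176 reads assigned to genes. Control 2 stood apart from the other controls on the first principal component, which held 68.6% of the variance: it scored 2.25, against -96.7 to -61.2 for controls 1, 3 and 4 and 58.9 to 105 for the ICI-myocarditis libraries. The coreceptor results are therefore given with and without it, as are log2 fold changes of other named genes that moved by over 1.5 times on the linear scale. All 8 heart muscle markers examined were present in every library, with a summed level of 2435240 to 4911910 normalized counts in controls and 1809020 to 2932840 in ICI-myocarditis. Pdcd1 had 2.50 to 244 normalized counts (reads divided by 1 size factor per library) in controls, the highest in control 2, and 1096 to 1481 in ICI-myocarditis. Ctla4 had 29.2 to 113 in controls and 251 to 373 in ICI-myocarditis. Counts over whole genes do not show which exons were read, so neither gene checks the genotype labels.

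All 3 coreceptor genes were higher in the myocarditis hearts, with larger fold changes for the CD8 genes (17.8 and 23.2 times by group means) than for Cd4 (7.48 times). Without control 2 these were 89.5 times for Cd8a, 125 times for Cd8b1 and 8.85 times for Cd4. Whether these fold changes differed was tested as a ratio within libraries. In controls, CD8 transcripts were scarce in 3 hearts and well above that level in control 2, whereas Cd4 stayed within a narrow range in all 4. Limma on log2(normalized count + 1), adjusted by the Benjamini-Hochberg method over 15258 genes with a threshold of 0.05, found each of the 3 higher, against 11.7% of all genes tested. Without control 2 all 3 were again called, against 14.9%, as they were by edgeR on recovered reads (10.1%). The limma fold changes are on that log2 scale, where the added 1 understates changes of low genes. A mean of logs also gives the high control 2 less weight than a mean of counts does. For Cd8a and Cd8b1 limma gave 5.43 and 5.85, above the 4.10 and 4.50 of edgeR. The limma p-values set each group difference against the spread between mice within groups. Limma pools that spread over both groups and draws on other genes for it.

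Cd4 lay at 72.6, 92.5, 42.4 and 45.0 normalized counts in controls 1 to 4 and at 333, 401 and 683 in ICI-myocarditis 1 to 3. The groups did not overlap, and the lowest ICI-myocarditis library was 3.59 times the highest control. The means were 63.1 ± 23.9 (SD, n = 4) and 472 ± 186 (SD, n = 3) normalized counts. Limma put Cd4 higher by 2.89 on the log2 scale (SE 0.370, adjusted p = 0.00316). Without control 2 it was 3.09 (SE 0.343, limma adjusted p = 0.000293). The control values rested on 36 to 75 reads per library.

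Cd8a, the alpha chain found in both forms of CD8, lay at 35.3, 572, 42.4 and 22.5 normalized counts in controls 1 to 4 and at 2569, 2515 and 3888 in ICI-myocarditis 1 to 3. Control 2 was thus over the other controls by more than an order of magnitude, yet below every ICI-myocarditis library, the lowest of which was 4.39 times as high. The means were 168 ± 269.6 (SD, n = 4) and 2991 ± 777 (SD, n = 3) normalized counts. For Cd8a the limma estimate was 5.43 on the log2 scale (SE 0.933, adjusted p = 0.00661). It was 6.46 without control 2 (SE 0.293, limma adjusted p = 7.81e-06), and 4.10 by edgeR on recovered reads (edgeR adjusted p = 0.0355).

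Cd8b1, the beta chain, lay at 7.06, 128, 11.2 and 2.50 normalized counts in controls 1 to 4, or 7, 104, 10 and 2 reads, and at 669, 744 and 1178 in ICI-myocarditis 1 to 3. The groups did not overlap, and 3 of the 4 control values rested on 10 reads or fewer. The means were 37.3 ± 60.8 (SD, n = 4) and 864 ± 275 (SD, n = 3) normalized counts. For Cd8b1 limma gave 5.85 on the log2 scale (SE 1.02, adjusted p = 0.0069). It was 6.90 without control 2 (SE 0.469, limma adjusted p = 2.89e-05), and 4.50 by edgeR (edgeR adjusted p = 0.023).

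All 3 genes lay wholly above the controls in ICI-myocarditis, as did 17.3% of genes tested. By size of the log2 fold change, 0.131% of genes tested reached the value of Cd8b1, 0.242% that of Cd8a and 3.38% that of Cd4.

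**Figure D1:**
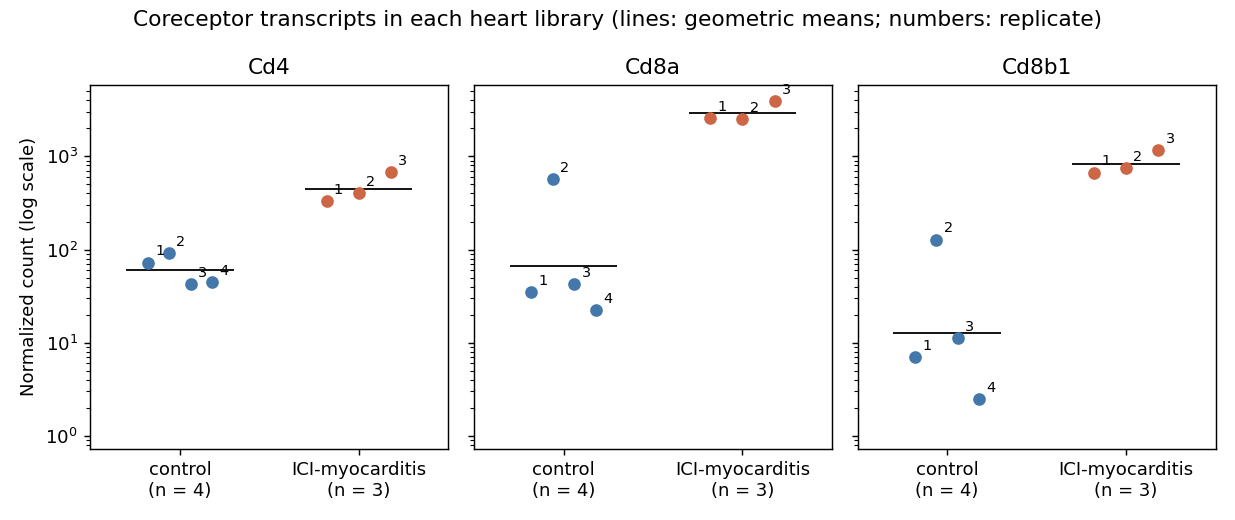
Normalized counts (log axis) of Cd4, Cd8a and Cd8b1 in each of 4 control and 3 ICI-myocarditis libraries, with points numbered by replicate and a line at the geometric mean of each group. Control 2 sits at 572 for Cd8a and 128 for Cd8b1, between the other controls and the ICI-myocarditis libraries, but at 92.5 for Cd4, close to its group.

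Levels of different genes were compared per kilobase of the principal transcript, of 3108 bases for Cd4, 3128 bases for Cd8a and 1483 bases for Cd8b1. In each ICI-myocarditis library the order was Cd8a, then Cd8b1, then Cd4. The levels were 821, 804 and 1243 normalized counts per kilobase for Cd8a, 451, 502 and 794 for Cd8b1, and 107, 129 and 220 for Cd4. Control 2 had that same order, with 183 for Cd8a, 86.5 for Cd8b1 and 29.8 for Cd4.

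The other controls differed from it. Cd4 led in control 1, at 23.4 normalized counts per kilobase against 11.3 for Cd8a and 4.76 for Cd8b1. In control 4 it led at 14.5 against 7.20 for Cd8a and 1.69 for Cd8b1. In control 3, Cd4 and Cd8a stood level at 13.7 and 13.6, each from 38 reads, with Cd8b1 at 7.53.

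The balance of CD8 to CD4 was then taken within each library, where library scaling cancels. There were 0.486, 6.19, 1 and 0.5 Cd8a reads per Cd4 read in controls 1 to 4 and 7.73, 6.28 and 5.69 in ICI-myocarditis 1 to 3. Controls 1, 3 and 4 had at most as many Cd8a as Cd4 reads, while control 2 fell inside the ICI-myocarditis range. As a share of Cd8a plus Cd4 reads, Cd8a took 32.7% (95% Clopper-Pearson interval 24.0 to 42.5), 86.1% (82.9 to 88.9), 50% (38.3 to 61.7) and 33.3% (21.1 to 47.5) in controls 1 to 4. In ICI-myocarditis 1 to 3 it took 88.5% (87.3 to 89.7), 86.3% (85.2 to 87.3) and 85.1% (84.1 to 85.9). The intervals cover counting error only.

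The mean log2 ratio of Cd8a to Cd4, with 1 added to each normalized count, was 0.16 ± 1.71 (SD) over the 4 controls and 2.7 ± 0.22 (SD) over the 3 diseased hearts. The difference of 2.54 did not pass an exact permutation test of the group labels, two-sided, with 35 arrangements (p = 0.0857, adjusted over 7 ratios 0.15). The smallest p this design allows is 0.0286. After adjustment over 7 ratios, 1 ratio at that p on its own could not fall below 0.05. A ratio that did not pass is therefore not shown to be unchanged. Without control 2 the difference was 3.36 and the groups did not overlap, a comparison of 3 with 3 that cannot fall below an exact permutation p of 0.10. When every gene was instead expressed relative to Cd4 and fitted with limma, Cd8a rose (limma adjusted p = 0.00168), as did 0.990% of genes tested.

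The beta chain gave a cleaner separation. There were 0.0972, 1.39, 0.263 and 0.0556 Cd8b1 reads per Cd4 read in controls 1 to 4 and 2.01, 1.86 and 1.72 in ICI-myocarditis 1 to 3. The groups did not overlap, with control 2 nearest to the diseased hearts. The log2 ratio differed by 2.96, from -2.07 ± 1.87 (SD, n = 4) to 0.89 ± 0.11 (SD, n = 3), and did not pass (exact permutation p = 0.0571, adjusted over 7 ratios 0.15). Relative to Cd4 in the limma fit, Cd8b1 rose (limma adjusted p = 0.000885).

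The proportion of the 2 CD8 chains was then read. Cd8b1 took 16.7% (95% Clopper-Pearson interval 6.97 to 31.4), 18.3% (15.2 to 21.7), 20.8% (10.5 to 34.99) and 10% (1.23 to 31.7) of Cd8b1 plus Cd8a reads in controls 1 to 4. It took 20.7% (19.3 to 22.1), 22.8% (21.6 to 24.1) and 23.3% (22.2 to 24.3) in ICI-myocarditis 1 to 3. The control intervals are wide, since controls 1, 3 and 4 had 20 to 48 such reads. The log2 ratio differed by 0.42, with overlapping groups (exact permutation p = 0.114, adjusted over 7 ratios 0.16). Per length, there were 0.234 to 0.555 beta transcripts per alpha transcript in controls and 0.549 to 0.639 in ICI-myocarditis.

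**Figure D2:**
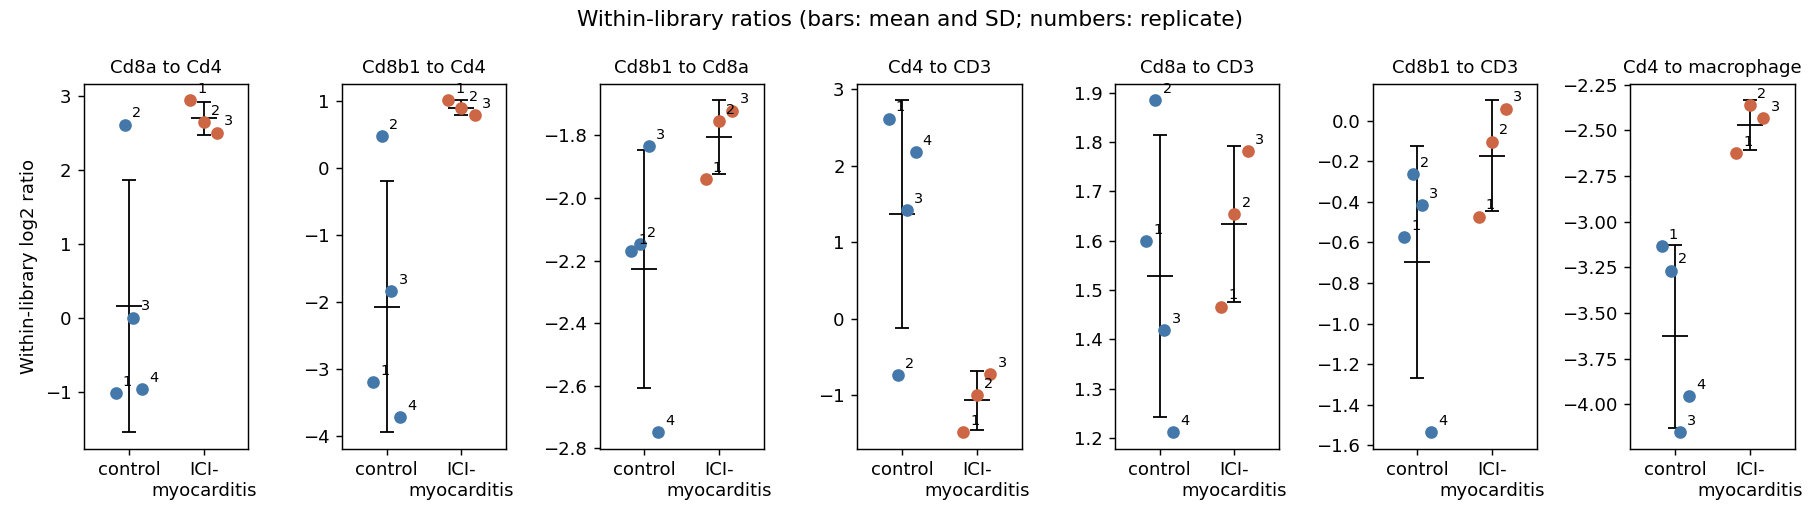
Within-library log2 ratios (1 added to each normalized count) in 4 control and 3 ICI-myocarditis libraries, with points numbered by replicate and bars for mean and SD; each panel has its own axis. Control 2 lies with the ICI-myocarditis libraries for Cd8a to Cd4 and for Cd4 to CD3, next to them for Cd8b1 to Cd4, and with the other controls for Cd4 to macrophage markers.

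The coreceptors were next set against the CD3 chains, which every T cell carries whatever its lineage. The denominator was the mean log2 level of Cd3d, Cd3e and Cd3g, again as ratios within a library. In controls 1, 3 and 4 each of these CD3 genes had only 5 to 21 reads. The Cd8a to CD3 ratio was 3.03, 3.69, 2.67 and 2.32 in controls 1 to 4 and 2.76, 3.15 and 3.44 in ICI-myocarditis 1 to 3. The groups overlapped throughout (log2 difference 0.10, exact permutation p = 0.629, adjusted over 7 ratios 0.629). The Cd8b1 to CD3 ratio was 0.345 to 0.833 in controls and 0.720 to 1.04 in ICI-myocarditis (log2 difference 0.53, exact permutation p = 0.20, adjusted 0.233).

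Relative to CD3, Cd4 varied more between hearts than the CD8 genes did. Its ratio to CD3 was 6.14, 0.602, 2.67 and 4.54 in controls 1 to 4 and 0.359, 0.502 and 0.605 in ICI-myocarditis 1 to 3. Controls 1, 3 and 4 thus had several Cd4 counts per CD3 count, while control 2 and all diseased hearts had fewer Cd4 than CD3 counts. The ratios of controls 1, 3 and 4 rest on the few CD3 reads given above. The log2 ratio was lower by 2.44 in ICI-myocarditis and did not pass (log2 difference -2.44, exact permutation p = 0.0857, adjusted over 7 ratios 0.15). Control 2 lay within the ICI-myocarditis range, and without it the difference was -3.14 with the groups apart. The limma fit of values relative to CD3 put Cd4 lower (limma adjusted p = 0.0307), but 97.1% of genes tested were lower there too.

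Most macrophage markers examined were higher where Cd4 was. Of the 8 markers, 7 were in the table and 5 of them were called higher, against 11.7% of all genes tested. The others were Cd14 (log2 change 0.09, limma adjusted p = 0.86) and Mertk (log2 change 0.94, limma adjusted p = 0.144). Their summed level was 9886 to 13979 normalized counts in controls and 32752 to 49668 in ICI-myocarditis. Their part in the Cd4 result was not tested. The ratio of Cd4 to the mean log2 level of these markers was 0.114, 0.104, 0.0563 and 0.0645 in controls 1 to 4 and 0.162, 0.195 and 0.185 in ICI-myocarditis 1 to 3. The groups did not overlap, and control 2 lay among the controls. The log2 difference was 1.15 (exact permutation p = 0.0286, the smallest possible, adjusted over 7 ratios 0.15). In the limma fit relative to these markers Cd4 rose (limma adjusted p = 0.0109), as did 3.49% of genes tested. Single markers changed unequally, from 0.09 for Cd14 to 3.46 for Fcgr1 on the log2 scale. Fcgr1 alone rose by more than Cd4 (2.89), so the ratio depends on the markers averaged.

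**Figure D3:**
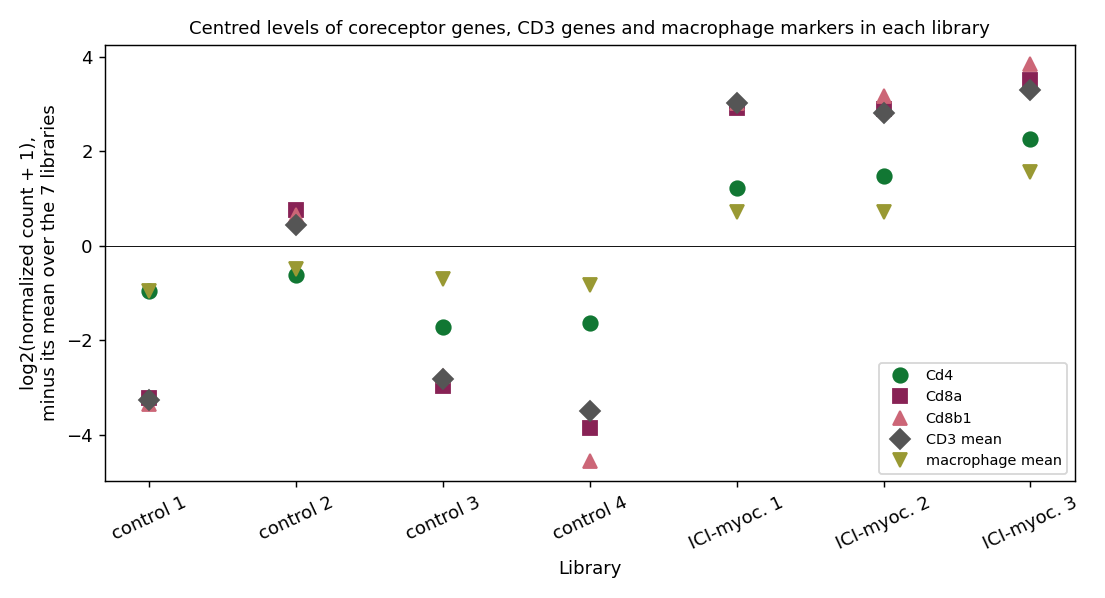
Level of Cd4, Cd8a, Cd8b1, the mean of 3 CD3 genes and the mean of 7 macrophage markers in each library, as log2(normalized count + 1) minus the mean over all 7 libraries. In control 2, Cd8a (0.75), Cd8b1 (0.65) and CD3 (0.44) lie above 0, while Cd4 (-0.62) and the macrophage markers (-0.48) lie below it.

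Markers of other cells were read in the same way, and the counts called higher stand against 11.7% of all genes tested. For dendritic cells of the cDC1 type, of which the mouse lymphoid form carries CD8 alpha, the 8 markers summed to 1216 to 4186 normalized counts in controls and 8387 to 15641 in ICI-myocarditis, and 7 of 8 were called higher. Their receptor gene Xcr1 rose from 13.1 to 72.8 in controls to 276 to 501 in ICI-myocarditis. The member not called was Clec9a, whose groups overlapped, at 145 to 614 and 536 to 840 (log2 change 1.09, limma adjusted p = 0.118). The part of cDC1 cells in the Cd8a result was not tested. Plasmacytoid dendritic cell markers summed to 48.8 to 192 in controls and 210 to 471 in ICI-myocarditis, with 1 of 3 tested members called. The called gene, Pacsin1, lay at 19.0 to 45.6 in controls and 118 to 363 in ICI-myocarditis (log2 change 2.95, limma adjusted p = 0.00474). Siglech lay at 2.50 to 22.2 normalized counts in controls and 7.97 to 23.5 in ICI-myocarditis. Natural killer markers summed to 8.76 to 132 in controls and 173 to 377 in ICI-myocarditis, with Klra8 and Klra4 at 0 in all libraries. In this list 2 of 4 tested members were called, Klre1 and Klri2. Ncr1 and Klrb1c had overlapping groups and were not called (limma adjusted p = 0.395 and 0.0934). The B cell list had 1 of 4 tested members called, with sums of 51.4 to 127 and 118 to 150. Of 6 gamma-delta T cell names, 2 were in the table, and the 1 tested was not called. Thymus markers were near 0: the 6 genes summed to 6.26 to 21.2 normalized counts in controls and 5.12 to 8.40 in ICI-myocarditis, Foxn1 was at 0 in every library, and none passed the filter on low values.

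In the authors' deposited table, Cd4 had a log2 fold change of 2.90 (adjusted p = 1.72e-11) and Cd8b1 of 4.54 (adjusted p = 0.00405). For Cd8a the authors' deposited table gave a log2 fold change of 4.15 and a statistic of 3.43, but no p-value. It was 1 of 41 genes there with a fold change and no p-value, and the sources used here give no reason. A DESeq2 fit to the recovered reads was run with its default outlier filter on. It gave Cd8a the same log2 fold change of 4.15 with a DESeq2 adjusted p of 0.00534. In that DESeq2 fit the largest Cook's distance of Cd8a, a measure of how far 1 library moves the estimate, was 27.1, in control 2, against a default cutoff of 13.3. For Cd8b1 it was 12.6, also in control 2, and for Cd4 it was 0.455, in ICI-myocarditis 3.

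The rest of the recognition machinery rose with the coreceptors. All 4 CD3 complex genes were called higher (median log2 fold change 5.19, against -0.02 over all genes tested, of which 11.7% were called higher). Cd3d (5.17), Cd3e (5.61) and Cd3g (5.20), which form the CD3 dimers, lay near Cd8a, while Cd247 (2.38), the zeta chain, lay nearer to Cd4. Without control 2 they were 6.02, 6.67, 6.00 and 2.64, in that order. All 8 genes of coreceptor signalling were called higher, against 11.7% of genes tested, with a median of 3.65. Lck, the kinase held by both coreceptors, lay at 27.2, 303, 40.2 and 26.3 normalized counts in controls 1 to 4 and at 1071, 926 and 1440 in ICI-myocarditis 1 to 3. Limma put its rise at 4.34 (log2, SE 0.756), with an adjusted p of 0.00698. Control 2 again stood over its group, and without it the rise of Lck was 5.15. The adaptor gene Lcp2 rose by 3.19 and Csk, which encodes the kinase that inhibits LCK, by 1.13.

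Ligands of both coreceptors rose. The MHC class I genes H2-K1 (2.89), H2-D1 (2.51) and B2m (2.63), which serve CD8, and the MHC class II genes H2-Aa (3.63), H2-Ab1 (3.78) and H2-Eb1 (3.91), which serve CD4, were all called higher on the log2 scale (limma adjusted p from 0.00251 to 0.00422). H2-K1 was already abundant in controls, at 4497 to 17894 normalized counts, and reached 57145 to 60949 in ICI-myocarditis. The H2 genes belong to a family of similar sequences among which reads may be split. Il16, which encodes a secreted ligand of CD4, had overlapping groups, with 369 to 1130 normalized counts in controls and 883 to 1203 in the diseased hearts (limma log2 change 0.59, adjusted p = 0.291).

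Genes tied to the CD8 and cytotoxic lineage and to the CD4 helper and regulatory lineages were counted as lists. Of 13 CD8 and cytotoxic genes all 13 were called higher (median log2 fold change 4.58), against 11.7% of genes tested. Without ICI-myocarditis 3, 7 of them were called, where 986 genes in all were called in either direction (6.55% of those tested). Prf1, encoding perforin, rose by 5.39, Nkg7 by 5.99, Klrd1 by 5.29 and Tbx21, encoding the transcription factor T-bet, by 4.49. Without control 2 these were 6.16, 7.03, 6.09 and 5.21. Natural killer cells share several of these genes. Runx3, encoding a factor that silences Cd4 in CD8 cells, rose from 39.1 to 231 normalized counts in controls to 542 to 1145 (a limma log2 change of 2.88, adjusted p = 0.0109). It was no longer called when ICI-myocarditis 3 was left out (limma adjusted p = 0.0511).

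Of 12 CD4 helper and regulatory genes, 9 were tested and 4 called higher (median 2.29), against 11.7% of genes tested. The called genes were Icos (4.66), a costimulatory receptor gene, Il21 (3.94), a cytokine gene with 0 to 4.93 normalized counts in controls and 13.3 to 35.1 in ICI-myocarditis, Tnfrsf4 (3.13), which encodes OX40, and Gata3 (2.29), which encodes a factor of type 2 helper cells. Il21 reached 10 normalized counts in the ICI-myocarditis libraries only, so it entered the test through the group where it was high. Its call is therefore no independent support for the count of 4. Without control 2, Icos was at 5.44 and Il21 at 4.58. With any 1 of the ICI-myocarditis libraries left out, 2 of the list were called. Il21 then failed the filter on low values and was not tested, while Gata3 was tested and not called. Where it was tested, Il21 was past the threshold in all 13 alternatives. Calls over all genes in either direction also fell without ICI-myocarditis 3, from 15.7% to 6.55% of those tested. Gata3 passed in 10 of 16 alternatives, and limma no longer called it with ICI-myocarditis 3 left out (adjusted p = 0.113) or with either of the other diseased hearts left out (0.0511 and 0.0739). Foxp3, the factor of regulatory T cells, lay at 24.2, 64.1, 19.0 and 5 normalized counts in controls 1 to 4 and at 87.0, 81.9 and 196 in ICI-myocarditis 1 to 3. Its groups were apart, but its log2 fold change of 2.42 did not pass (limma adjusted p = 0.052) and did without control 2 (2.96, limma adjusted p = 0.00746). Zbtb7b, encoding the ThPOK factor that commits cells to CD4, is not confined to T cells and had 797 to 1217 normalized counts in controls and 1110 to 1682 in the diseased hearts (limma log2 change 0.42, adjusted p = 0.264). Cd40lg, which encodes the helper ligand of CD40, was too low to be tested, with 0 to 4.47 normalized counts in controls and 6.14 to 17.4 in ICI-myocarditis. The difference between the lists was not tested.

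Of 12 regulators of the coreceptor genes, 3 of which also belong to the lineage lists, 7 were called higher (median 2.12) and none lower, against 11.7% and 4.00% of genes tested. Without control 2, 8 were called higher and 1 lower, against 2252 higher and 1088 lower of all 15126 genes tested. Tox, required for CD4 cell development, rose by 3.68, Ikzf1, encoding Ikaros, by 3.01, Bcl11b, a T cell commitment factor, by 2.46 and Tcf7, encoding TCF1, by 2.14. Without control 2, Tox was at 4.33.

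**Figure D4:**
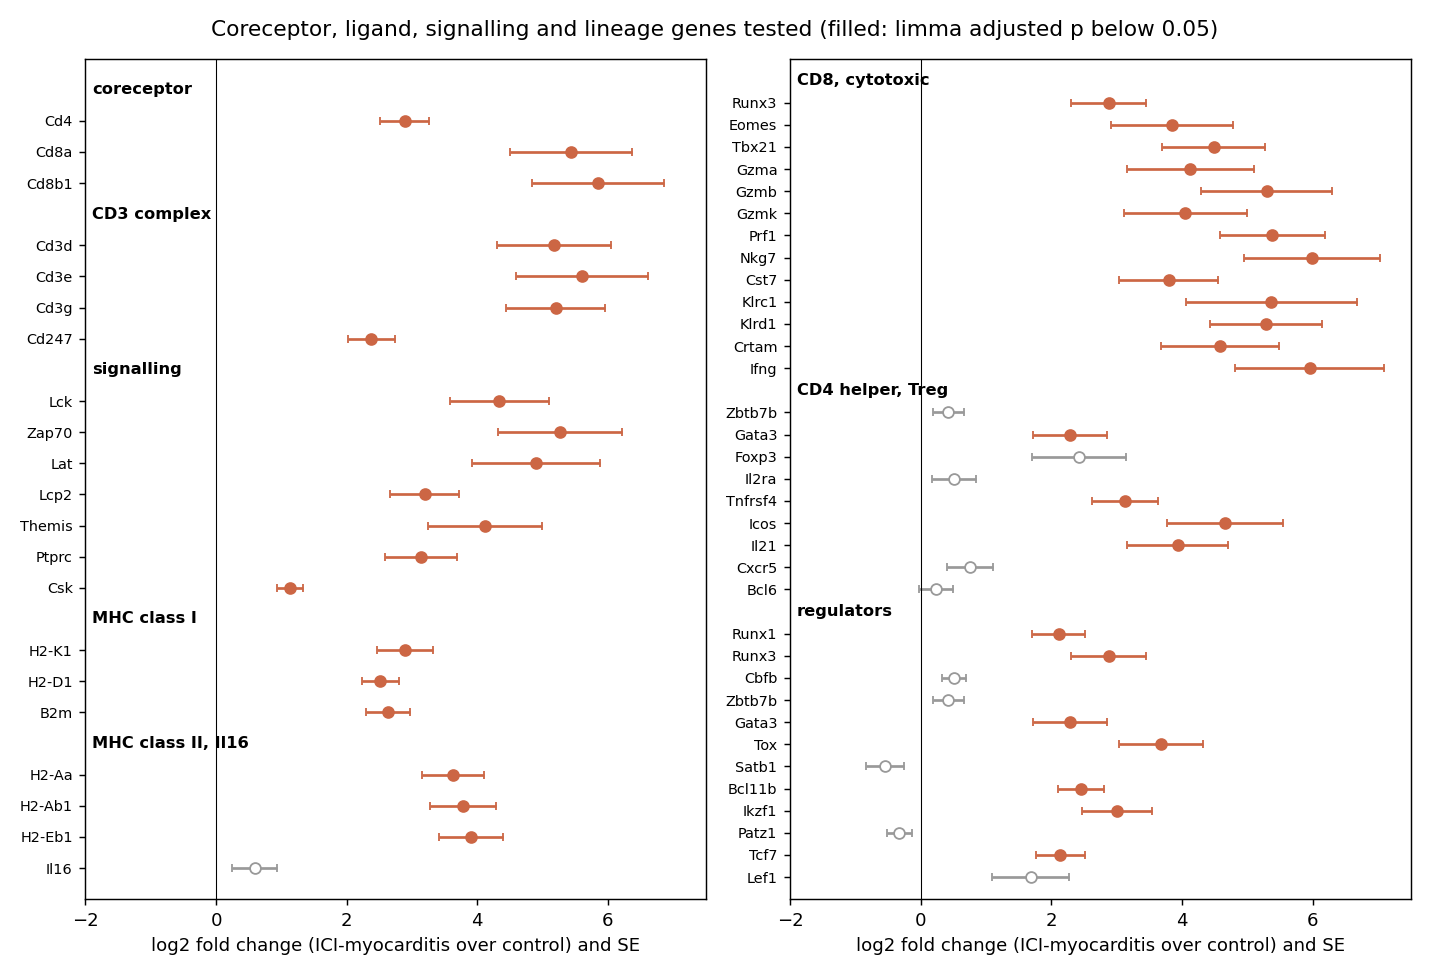
Log2 fold change (ICI-myocarditis over control, limma) with its standard error for tested genes of 8 lists, filled where the adjusted p is below 0.05. Cd8a (5.43) and Cd8b1 (5.85) lie with Cd3d, Cd3e and Cd3g, while Cd4 (2.89) lies lower, and open points are most frequent among the CD4 helper genes and the regulators.

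The genes with the most similar profiles were ranked by the root mean square difference of log2 levels over the 7 libraries, each gene centred on its own mean. For Cd8a they were Zap70 (0.189), a T cell receptor kinase gene, Il2rb (0.308), Cd3e (0.327), Folr4 (0.329) and Cd8b1 (0.330). For Cd8b1 they were Sectm1a (0.216), Ifng (0.240), Ccl5 (0.304), Cd8a (0.330) and Cd3e (0.352). For Cd4 they were Lrrc25 (0.101), Cotl1 (0.143), an actin-binding protein gene, Basp1 (0.154), Laptm5 (0.175), a lysosomal membrane protein gene of blood cells, and Kcnab2 (0.190). The difference of Cd4 was 1.69 from Cd8a and 1.91 from Cd8b1. At that distance no gene this close to Cd4 could also be on a CD8 list, so their lack of overlap adds nothing. Of the genes closest to Cd4, Lrrc25 lay at 114, 146, 80.4 and 68.8 normalized counts in controls 1 to 4 and at 516, 630 and 1025 in ICI-myocarditis 1 to 3. Of those closest to Cd8a, Zap70 lay at 10.1, 169, 8.93 and 6.26 in controls 1 to 4 and at 727, 652 and 844 in ICI-myocarditis 1 to 3. Control 2 was the highest control for both genes, by far more for Zap70 than for Lrrc25.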

How the data were processed

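RNA from 7 hearts was sequenced as stranded, paired-end total RNA libraries, per the labels. The deposited table gives 1 column per library in a signal unit, which the authors made by dividing gene read counts by 1 size factor per library, as the values show. The authors' log2 fold changes are deposited beside these, with standard errors. The deposited score column holds their test statistics. A raw and an adjusted p-value per gene close the table, per the file headers. STAR 2.7.3, GRCm38 and mm10 are named in the submitters' processing notes. Which counter and gene models were used, and whether strand was read in counting, is not given in the sources used here. Dividing by the smallest step gave whole reads (within 0.01) for 100% of values, with control 1, whose step was 1.01, the weakest case. Rows with names turned into dates (27) or repeated (2 names) held 0.143% of reads.

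Limma 3.58.1 (R 4.3.3, trend and robust variance) was fitted to genes that reached 10 normalized counts in 3 or more libraries, with all 7 libraries and no covariate. Genes low in controls, Il21 and Cd8b1 among them, passed this filter only with the ICI-myocarditis libraries counted. Ratios were tested by exact permutation. Alternatives were edgeR 4.0.16 and DESeq2 1.42.0 on recovered reads, pseudocounts of 0.5 and 5, no filter, library-size and TMM scaling, a replicate block, and leaving out each library. No molecular identifiers are named in the labels, so reads may repeat a molecule. On simulated counts for 14772 genes of this comparison limma recovered 79.6% of changes of 2 and 14.3% of changes of 1 on the log2 scale.

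The members and lists were chosen with earlier results of these data known. Genes named are the 3 coreceptor genes, all members of the CD3 and MHC lists, Lck, Runx3, Zbtb7b, Foxp3, Cd40lg, the 4 genes with the lowest limma p in each other list, and the 5 nearest profiles, passing over predicted genes and Rik clones. Marker genes of other cells were named after their values were seen. A signalling gene that this rule names is not reported here by name and is not drawn.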

Additional observations from a re-analysis of the deposited data

Results flagged for a closer look

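Dixon's test at the 95% level was applied to 52 values (log2 levels of named genes, and ratios) within the 4 controls. It compares the widest gap at either end of a group with the whole range, and 4 of the 52 exceeded its critical value of 82.9% of the range, where chance gives about 1 in 20. In each of these, control 2 lay far above the others. The gap made up 84.1% of the range for Cd3g, 82.9% for Lck, marginally past the critical value, and 86.6% for Zap70. For Il21 it was 100% of the range, since this gene was at 0 in controls 1, 3 and 4. Cd8a (80.8%) did not reach the critical value. Control 2 was the upper library at the wider gap in 39 of the 52. The 52 values are not independent, and some genes, such as Zap70, were named for a profile near that of a coreceptor gene. These counts therefore do not measure how unusual control 2 is.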

How the results depend on the processing

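Cd4, Cd8a and Cd8b1 stayed higher and past the threshold in all 16 alternatives each. Their log2 fold changes ranged from 2.59 to 3.11, from 4.10 to 6.46 and from 4.50 to 6.90. Leaving out 1 library at a time gave 986 to 3340 genes called over all genes (2397 with all libraries). The lowest counts were without ICI-myocarditis 3 (986), control 3 (1298), ICI-myocarditis 2 (1396) and control 1 (1508). Over the same omissions the CD8 and cytotoxic list had 7 to 13 genes called and the CD4 helper and regulatory list 2 to 5. The Cd8a to CD3 difference ranged from -0.00061 (without control 4) to 0.22. With limma on values relative to the denominator, 4 ratios passed that missed the permutation test: 2.54 for Cd8a to Cd4, 2.96 for Cd8b1 to Cd4, -2.44 for Cd4 to CD3 and 1.15 for Cd4 to macrophage markers. That fit borrows its variance from other genes. The permutation test could not pass 0.05 with any library left out. Replicate numbers are shared by the groups, but same-numbered libraries did not deviate together (correlations -0.271, -0.206 and -0.0784). With the replicate block, 1764 genes were called, the log2 fold changes were 2.75 for Cd4, 4.92 for Cd8a and 5.17 for Cd8b1, all past the threshold, and the Cd8a to Cd4 difference was 2.17 (exact sign-flip permutation p = 0.25, the smallest possible). DESeq2 without its outlier filter was added after the data were seen and changed no call of the 3 genes. Depth limits Cd8b1 most, at 2 to 10 reads in 3 controls.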

Other observations

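Of the genes near the coreceptor loci, 2 were examined, and neither was called. Smyd1, which encodes a methyltransferase of heart and skeletal muscle, starts 554 bases from the start of Cd8b1 on the opposite strand. It lay at 9872 to 23602 normalized counts in controls and 7201 to 11057 in the diseased hearts (limma log2 change -0.69, adjusted p = 0.201). Gpr162, which adjoins Cd4, lay at 58.8 to 202 in controls and 124 to 225 in the diseased hearts (limma log2 change 0.68, adjusted p = 0.324). Both genes were chosen for their position.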
